A study of Mus musculus with 35 samples.

Results

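Mouse colon tumour organoids given palmitic acid in the group that the labels call batch 2 were compared, across all genes, with the organoids that served as the palmitic acid control. The members were chosen by their labels alone: 2 batch 2 libraries and 3 control libraries, 5 of the 35 libraries in the series. The control belongs to no named batch, so palmitic acid and batch cannot be told apart in this comparison. All 5 libraries were RNA from organoids grown in vitro, with colon as tissue, tumor as cell type and AKP as genotype, in both groups alike. The labels do not spell AKP out. The groups differed by label in palmitic acid and in batch. The sources used here give no dose, vehicle or length of treatment. The labels do not say whether the libraries within each group were separate cultures. The p-values thus rest only on spread between libraries, largely shared across genes in the fit, and this spread may be technical. The series asked how fatty acid and ceramide levels alter transcription in these organoids. It also holds 3 palmitic acid libraries labelled batch 1, and 27 libraries of a carmofur experiment with its own controls.

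Palmitic acid is the most common saturated fatty acid of animal cells. Inside a cell it is joined to coenzyme A and can be burned in mitochondria, desaturated, stored in droplets, or joined to serine by serine palmitoyltransferase in the first step of ceramide synthesis. Ceramides are the backbone of sphingolipids, and ceramidases break them down. Fatty acids also bind PPAR receptors, which switch on genes of fat oxidation, and an excess of palmitic acid is known to load the endoplasmic reticulum and raise stress genes. Intestinal organoids are epithelial cultures without the stroma, vessels and immune cells of the gut.

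The control libraries held 762888, 2511723 and 2240767 counts, and the batch 2 libraries 3742289 and 2406582. Control 1 was the shallowest library. It lay apart from the other 7 palmitic acid libraries on the first principal component, which carried 32.7% of the variance. A count of 0 allowed up to 3.93 CPM (counts scaled to a common library size) in control 1, 1.34 in control 3, 1.19 in control 2, and 0.802 and 1.25 in the batch 2 libraries, for counting error only. Mitochondrially encoded genes took 5.50% to 5.92% of the counts in controls, and 5.96% and 6.20% in batch 2. Summed epithelial markers reached 3692, 3842 and 4050 CPM in controls and 3111 and 3155 CPM in batch 2, so the sums did not overlap. Each of the 10 markers had counts in some library. Of 9 markers tested, 8 had fold changes below 0 and none passed the threshold given below. Both batch 2 libraries lay below all controls for 2 of them (22.2%, against 9.02% of all genes). Lgals4, Krt8 and Epcam, the markers with the lowest p, had log2 fold changes of -0.36, -0.39 and -0.40. Cdh1, Vil1 and Krt19 had -0.05, -0.09 and 0.03. The largest count of any marker in the 5 libraries was 7325, and no keratin exceeded 1300. The sum therefore leans on its most abundant markers and does not weigh the 10 alike. Of the markers of other cell types, 7 of 8 mesenchymal, 5 of 8 immune, 4 of 6 endothelial, 4 of 5 red cell and 2 of 4 nerve or glial genes were at 0 in all 5 libraries. Ptprc, Cdh5 and Col1a1, which define immune, endothelial and mesenchymal cells, were among them. The immune markers summed to 21.9 to 51.7 CPM in controls and 25.7 to 32.5 in batch 2, nearly all of it Cd68. The part that the lower epithelial sum may play in the results was not tested. In bulk RNA, fewer cells of a type and less RNA per cell cannot be told apart.

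At an adjusted p under 0.05 (quasi-likelihood test of edgeR, adjusted by Benjamini-Hochberg), 32 of 9845 genes changed (0.325%), 18 of them higher (0.183%) and 14 lower (0.142%) in batch 2. The rises included Dapl1, Ifitm3, Mgp, the small proline-rich genes Sprr2a2 and Sprr2a3, and the secreted proteins Wfdc18 and Tff1. The falls included Fgfbp1, Rnf186, the membrane linkers Msn and Ahnak, the oxidoreductase Ero1a and the lipid enzyme Enpp2. Genes of ceramide metabolism and fatty acid oxidation gave no calls. The median log2 fold change of all genes was -0.01, with 49.1% of genes above 0 and 50.9% below. Both batch 2 libraries lay above all controls for 1073 genes (10.9%) and below all of them for 888 (9.02%), 19.9% in either direction, and this held for all 18 rises and all 14 falls. At an unadjusted p under 0.05 there were 375 higher (3.81%) and 324 lower genes (3.29%). These shares are the background for the unadjusted counts of each list below. The first gene outside the threshold was Calml4, at -0.69 on the log2 scale (adjusted p = 0.0605), and the last inside was Rhoj (adjusted p = 0.0457).

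**Figure D1:**
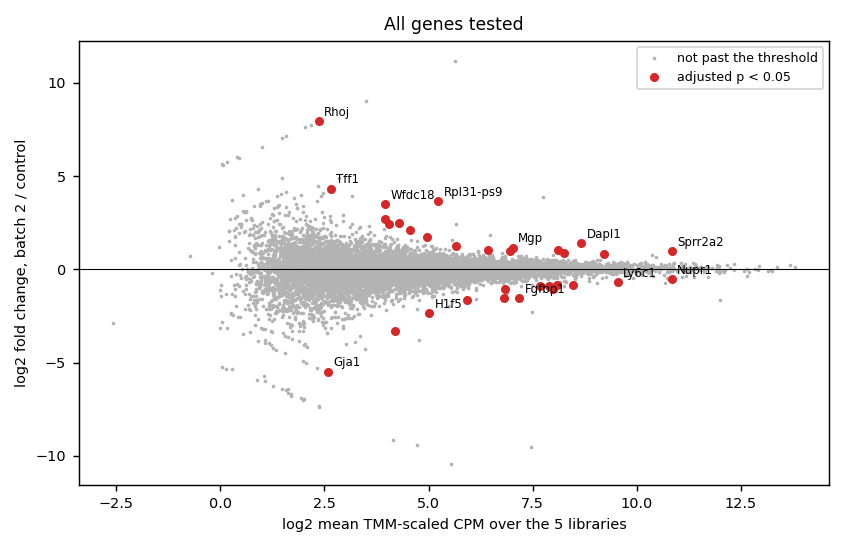
Log2 fold change of batch 2 over control (vertical) against the log2 mean TMM-scaled CPM of the 5 libraries (horizontal), 1 point per tested gene. The 32 genes past the threshold are in red, and some are named; most of the widest changes belong to genes of low level that did not pass.

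Of the 32 genes, 6 passed under all 16 alternative settings: Dapl1, Ifitm3, Mgp and Gm20390 among the rises, and Fgfbp1 and Rnf186 among the falls. The promoters of these most stable genes are shown so that the reader can see which sequences lie before genes that moved under every setting. RefSeq (GRCm38.p6) gave promoters for 4 of the 6, and for 22 of the 32. Each line runs 5′ to 3′ on the gene's strand over the 200 bases that end just before the RefSeq start, and capitals mark the TATA box.
Dapl1 (chr2:59484453-59484652, plus strand): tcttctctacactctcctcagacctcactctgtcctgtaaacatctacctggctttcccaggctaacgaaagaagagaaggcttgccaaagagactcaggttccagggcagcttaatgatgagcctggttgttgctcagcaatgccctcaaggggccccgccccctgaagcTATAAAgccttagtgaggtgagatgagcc
Ifitm3 (chr7:141010745-141010944, minus strand): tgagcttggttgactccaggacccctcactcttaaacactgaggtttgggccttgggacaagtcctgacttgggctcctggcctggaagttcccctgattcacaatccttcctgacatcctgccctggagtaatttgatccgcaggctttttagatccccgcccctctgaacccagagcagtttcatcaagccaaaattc
Fgfbp1 (chr5:43981800-43981999, minus strand): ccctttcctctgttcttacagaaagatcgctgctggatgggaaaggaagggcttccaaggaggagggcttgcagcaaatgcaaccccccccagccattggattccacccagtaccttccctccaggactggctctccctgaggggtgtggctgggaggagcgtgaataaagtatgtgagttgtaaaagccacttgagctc
Rnf186 (chr4:138966919-138967118, plus strand): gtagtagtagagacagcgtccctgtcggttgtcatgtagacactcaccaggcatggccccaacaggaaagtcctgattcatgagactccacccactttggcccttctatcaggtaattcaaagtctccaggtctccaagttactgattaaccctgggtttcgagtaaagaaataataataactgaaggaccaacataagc
These windows were searched on both strands for TATAAA (the TATA box), AGGTCA (a half-site of nuclear receptors such as the PPARs) and ACGTG (the core of hypoxia response elements). The only match was TATAAA in Dapl1, which began 29 bases before the start. Over 32851 RefSeq promoters of the same length, TATAAA was found in 9.96%, AGGTCA in 11.4% and ACGTG in 14%.

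Dapl1, a small protein related to death-associated protein 1 and known from differentiating epithelia, gave the lowest p. Its level was 271, 249 and 217 CPM in controls 1 to 3, and 643 and 652 CPM in batch 2 libraries 1 and 2. Both batch 2 libraries were far above every control, with 1.40 ± 0.15 (log2 fold change ± SE; edgeR adjusted p = 3.52e-10). Ifitm3, an interferon-inducible membrane protein that hinders virus entry, stood at 215, 178 and 185 CPM in controls and at 408 and 393 CPM in batch 2 (1.06 ± 0.16, adjusted p = 1.81e-05). The groups were well apart. Of its transcript, 20.5% of 31-base words also occur in other genes. The neighbouring Ifitm2 had 732 to 818 CPM in controls and 975 and 1059 CPM in batch 2, a ratio of 1.31, and Ifitm1 a ratio of 0.952, so the 3 genes differed in their ratios. Mgp, matrix Gla protein, an inhibitor of calcification, rose from 76.1, 94.4 and 89.5 CPM to 185 and 204 CPM (1.15 ± 0.20, adjusted p = 1.33e-04).

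Gm20390 lies over Nme1 and Nme2, nucleoside diphosphate kinase genes, on the same strand of chromosome 11. It rose from 389, 490 and 472 CPM to 756 and 845 CPM (0.82 ± 0.14, adjusted p = 1.91e-04). Since 97.4% of its 31-base words also lie in Nme2, Nme1 or other genes, its reads cannot be told from theirs with certainty. Summed over the 3 genes, the level was 1793, 1783 and 2044 CPM in controls and 2470 and 2585 CPM in batch 2, a ratio of 1.35. The sum thus lay above all controls, by less than Gm20390 alone.

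Fgfbp1 and Rnf186 fell to ratios of 0.344 and 0.339 of control, and none of their 31-base words occur in another gene. Fgfbp1, a secreted carrier that frees fibroblast growth factors from the matrix, stood at 215, 178 and 196 CPM in controls. In batch 2 it stood at 77.2 and 57.0 CPM (-1.54 ± 0.24, adjusted p = 3.03e-05). Rnf186, a ubiquitin ligase of the endoplasmic reticulum found in colon epithelium, was even across controls, at 156, 146 and 160 CPM, and at 56.1 and 47.8 CPM in batch 2 (-1.56 ± 0.26, adjusted p = 7.50e-05).

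**Figure D2:**
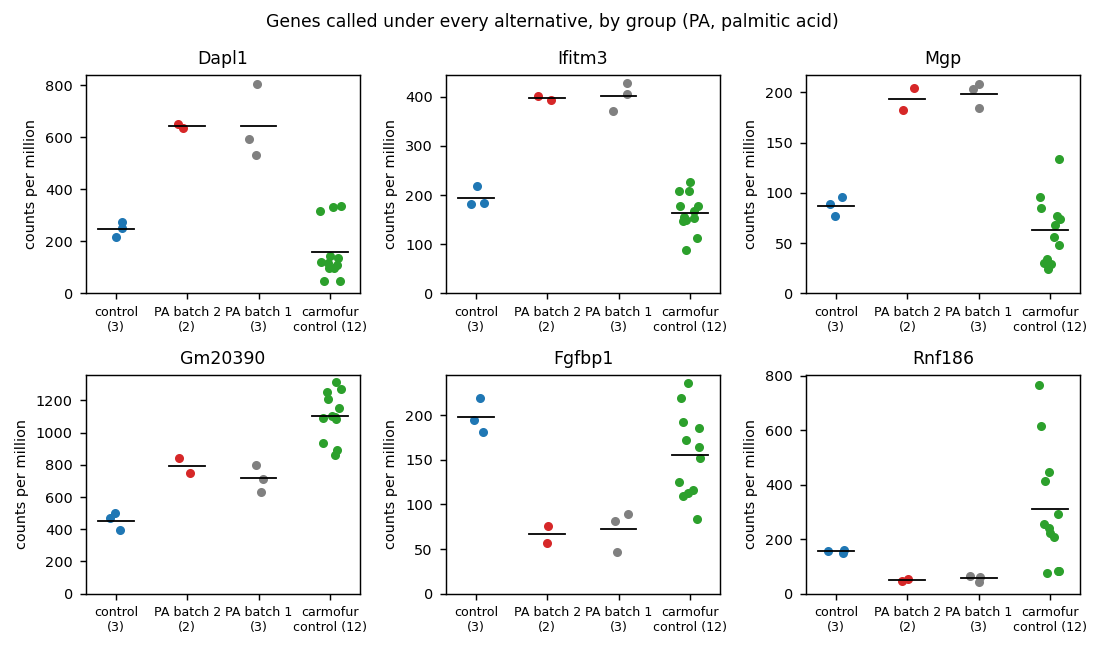
CPM without TMM scaling (vertical, from 0) of the 6 genes called under every alternative, 1 point per library and a line at the group mean. The groups are the palmitic acid (PA) control, PA batch 2, PA batch 1 and the 12 controls of the carmofur experiment. Batch 2 points lie beyond all 3 controls in each panel; the carmofur controls come from another experiment and are drawn as a description.

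The Sprr2a genes encode small proline-rich proteins that are cross-linked into the cornified envelope and are also made in the gut. Sprr2a2 rose from 1302, 1359 and 1321 CPM to 2527 and 2738 CPM (0.99 ± 0.13, adjusted p = 4.53e-06). Without control 1, its adjusted p was 0.382 at a similar fold change. Sprr2a3 rose from 180, 262 and 230 CPM to 395 and 445 CPM (0.89 ± 0.17, adjusted p = 5.68e-04, and 0.0753 without batch 2 library 2). These copies share 97.8% and 73.6% of their 31-base words with other genes, mainly with each other and Sprr2a1. Their sum with Sprr2a1 was 1482, 1620 and 1552 CPM in controls and 2953 and 3183 CPM in batch 2, a ratio of 1.98. The rise was thus also seen with these copies counted together. How reads were divided among them was not tested.

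Krt33a, a keratin of hair, rose from 1.29, 10.6 and 6.75 CPM to 26.3 and 53.3 CPM (2.48 ± 0.52, adjusted p = 0.00628). Without batch 2 library 2, its adjusted p was 0.416. It shares words with Krt34 and Krt33b, and the 3 together gave 27.1, 32.9 and 28.3 CPM in controls and 81.5 and 134 CPM in batch 2. Of the 14 keratins tested, Krt33a alone passed. Krt32, another hair keratin, was at 1.29, 0.783 and 0.450 CPM in controls and 18.7 and 5.41 CPM in batch 2, with an adjusted p of 0.0650. The simple keratins of gut epithelium, Krt8 and Krt18, had log2 fold changes of -0.39 and -0.20 and did not pass. The keratin median was 0.03 (0.01 to 0.34 over the settings).

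Wfdc18, a small secreted member of the whey acidic protein family, which holds many protease inhibitors, was at 0, 3.13 and 4.50 CPM in controls and at 34.9 CPM in both batch 2 libraries. It rose by 3.50 ± 0.57 on the log2 scale (adjusted p = 5.47e-05), and its highest adjusted p without any 1 library was 7.84e-04, although limma-voom did not call it. Tff1, a trefoil peptide best known from gastric surface mucus, was at 0, 0.392 and 1.35 CPM in controls and at 23.6 and 6.24 CPM in batch 2. Both lay above the controls, but with unequal levels (4.32 ± 0.86, adjusted p = 0.00266), and without batch 2 library 1 the adjusted p was 0.567. Ctsh, a lysosomal cysteine protease, rose from 45.1, 61.1 and 72.9 CPM to 130 and 118 CPM (1.03 ± 0.25, adjusted p = 0.0378). Its call was lost without any of controls 1 and 2, the batch 1 libraries that share the estimate of spread, or the batch 2 libraries, with adjusted p from 0.0521 to 0.556.

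Timm10b, a chaperone for proteins entering mitochondria, rose from 67.0, 104 and 94.5 CPM to 211 and 148 CPM (0.99 ± 0.21, adjusted p = 0.00561, and 0.682 without batch 2 library 1). Tnni1 and Smpx, known from skeletal muscle, were low in controls. Tnni1, slow troponin I, rose from 24.5, 15.7 and 10.3 CPM to 49.3 and 56.2 CPM (1.73 ± 0.38, adjusted p = 0.00955). Without control 3 or either batch 2 library its adjusted p was 0.0526 to 0.175. Smpx was at 0, 15.3 and 11.7 CPM in controls and 44.4 and 46.2 CPM in batch 2 (2.13 ± 0.49, adjusted p = 0.0366). Its call was lost without control 3 or any batch 1 library (adjusted p from 0.0703 to 0.124). Alms1-ps2, a pseudogene named after its values were seen, rose from 3.87, 5.88 and 4.05 CPM to 34.1 and 29.1 CPM (2.72 ± 0.56, adjusted p = 0.00362, and 0.0649 without batch 2 library 1). It shares 82.3% of its words with other genes, mostly Alms1.

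The last of the rises sat near the threshold. Aspscr1, a tether of glucose transporter vesicles, rose from 21.9, 41.9 and 31.0 CPM to 56.1 and 99.9 CPM (1.25 ± 0.31, adjusted p = 0.0412). Its call was lost without controls 1 or 3, any batch 1 library or batch 2 library 2, with adjusted p from 0.0683 to 1. Zfp967, a zinc finger gene, rose from 9.02, 7.05 and 2.70 CPM to 24.9 and 39.1 CPM (2.43 ± 0.60, adjusted p = 0.0448). All of its words occur in other genes, and its call was lost without controls 1 or 3, batch 1 libraries 1 or 3, or batch 2 library 2 (adjusted p from 0.0807 to 0.475). Rhoj, a small GTPase known from endothelium, had no count in any control and 77 counts in batch 2, at 11.6 and 14.1 CPM. Against a floor of 3 counts over the controls, that is at least 23.4-fold higher (adjusted p = 0.0457), and the call was lost without any 1 of the 8 libraries of the fit, with adjusted p from 0.0502 to 0.382. Endothelial markers overlapped between the groups, at 5.88 to 11.6 CPM in controls and 8.32 and 12.2 CPM in batch 2.

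Msn and Ahnak, which link the membrane to the cell skeleton, were among the 14 falls. Msn is moesin, which ties actin to the membrane. It fell from 116, 77.6 and 57.6 CPM to 30.1 and 22.9 CPM (-1.63 ± 0.35, adjusted p = 0.00820), and without control 1 or either batch 2 library its adjusted p was 0.0526 to 0.351. Ahnak, a giant scaffold protein beneath the membrane, fell from 290, 225 and 236 CPM to 123 and 147 CPM (-0.88 ± 0.20, adjusted p = 0.00955). Without batch 2 library 1 or 2 its adjusted p was 0.567 or 0.101. Of the 20 membrane-cytoskeleton linkers tested, 17 had negative fold changes, these 2 fell (0.142% of all genes did) and none rose. Below all controls lay 8 of the 20 (9.02% of all genes). The median was -0.59, against -0.01 over all genes, and -0.61 to -0.40 over the settings. Rdx, radixin, the close relative of moesin, was at 79.9, 57.6 and 46.3 CPM in controls and 24.9 and 27.0 CPM in batch 2 without passing (adjusted p = 0.177).

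Gja1, the gap junction protein connexin 43, was at 7.73, 3.53 and 18.4 CPM in controls and at 0 and 0.416 CPM in batch 2. Those levels rest on 6, 9 and 41 counts against 0 and 1. The fitted change was -5.49 ± 1.28 on the log2 scale (adjusted p = 0.0209). The call was lost without control 3, any batch 1 library or either batch 2 library, with adjusted p from 0.0502 to 0.567. Of 25 junction genes tested, Gja1 fell and none rose, with a median of -0.13 (-0.42 to -0.08 over the settings). Dsg2, a desmosomal cadherin, was at 107, 82.6 and 73.3 CPM in controls and 47.7 and 39.1 CPM in batch 2 (adjusted p = 0.161).

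Plac8, a small cysteine-rich protein, fell from 345, 348 and 270 CPM to 168 and 143 CPM (-1.04 ± 0.19, adjusted p = 5.68e-04, and 0.122 without batch 2 library 2). Enpp2, autotaxin, which makes the lipid signal lysophosphatidic acid, fell from 267, 313 and 289 CPM to 167 and 143 CPM (-0.90 ± 0.19, adjusted p = 0.00415). Without batch 2 library 1 or 2 its adjusted p was 0.0637 or 0.416. Ly6c1, a lipid-anchored surface protein, fell from 962, 797 and 889 CPM to 523 and 563 CPM (-0.70 ± 0.14, adjusted p = 0.00390, and 0.372 or 0.115 without batch 2 library 1 or 2). Ly6c1 and Ly6c2 share sequence, and their sum had a ratio of 0.620, so the fall was alike with both counted. 2610528A11Rik fell from 157, 182 and 94.5 CPM to 70.4 and 66.2 CPM (-1.08 ± 0.25, adjusted p = 0.0233). Its call was lost without controls 1 or 2, batch 1 library 2 or either batch 2 library, with adjusted p from 0.0543 to 0.403.

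Ero1a, which passes electrons to oxygen as disulfide bonds form in the endoplasmic reticulum, fell from 494, 457 and 352 CPM to 257 and 221 CPM (-0.86 ± 0.17, adjusted p = 0.00272, and 0.374 without batch 2 library 2). Prelid2, of a family of mitochondrial lipid carriers, fell from 258, 380 and 343 CPM to 200 and 169 CPM (-0.83 ± 0.20, adjusted p = 0.0285). It was lost without controls 2 or 3, batch 1 library 2 or either batch 2 library (adjusted p from 0.0691 to 0.506). Nupr1, a stress-induced chromatin protein, fell from 1726, 2206 and 2342 CPM to 1411 and 1473 CPM (-0.54 ± 0.13, adjusted p = 0.0356). It was lost without any 1 library except control 1 (adjusted p from 0.0605 to 0.567). H1f5, a linker histone, was at 96.7, 20.8 and 26.5 CPM in controls and 11.1 and 6.66 CPM in batch 2 (-2.34 ± 0.54, adjusted p = 0.0236). Control 1 set much of that contrast: without it the change was -1.39 (log2) at an adjusted p of 0.559, and the call was also lost without any batch 1 or batch 2 library. Gm45315, a predicted pseudogene named after its values were seen, was at 42.5, 14.9 and 29.2 CPM in controls and 3.52 and 2.08 CPM in batch 2 (-3.29 ± 0.76, adjusted p = 0.0206). It shares 89.8% of its words with other genes, among them Gm15387 and Gm21596, so its reads cannot be told from theirs with certainty. Without controls 1 or 3 or either batch 2 library its adjusted p was 0.0607 to 0.382.

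**Figure D3:**
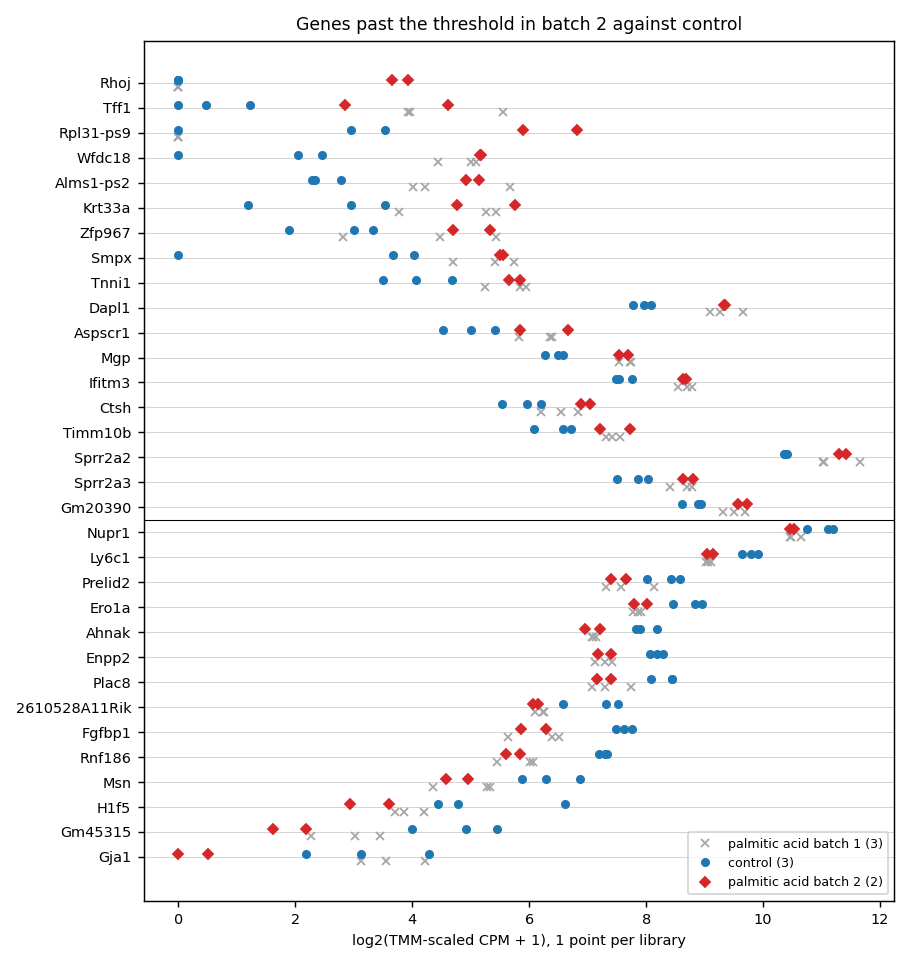
Level of each gene past the threshold, as log2(TMM-scaled CPM + 1) (horizontal), 1 line per gene and 1 point per library. The 3 control, 2 batch 2 and 3 batch 1 libraries are drawn. Both batch 2 libraries lie to 1 side of all 3 controls in every line.

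Genes that make and break down ceramide did not pass. Of 31 sphingolipid genes tested with edgeR, 0 were called and 3 higher and 1 lower had an unadjusted p under 0.05. Fold changes were above 0 for 20 of them, and the median was 0.18 (range over the settings 0.13 to 0.38). Of these, 9 lay above all controls, 29.0% against 10.9% of all genes. Sptlc1, a subunit of serine palmitoyltransferase, was at 25.8, 34.1 and 30.1 CPM in controls and 55.2 and 57.4 CPM in batch 2 (0.89 ± 0.34, adjusted p = 0.465). Ormdl1, which restrains that enzyme, was at 45.1, 59.9 and 66.1 CPM and then 81.0 and 116 CPM (0.76 ± 0.26, adjusted p = 0.305). Among ceramide synthases, Cers2 had 0.45 ± 0.34, Cers5 0.42 ± 0.92 and Cers6 0.38 ± 0.36 as log2 fold changes. Among ceramidases, Asah1, the lysosomal enzyme, was even at 242, 254 and 256 CPM in controls and 263 and 267 CPM in batch 2 (0.08 ± 0.17). Acer2 and Acer3 gave 0.34 ± 0.52 and 0.04 ± 0.36, and Acer1, at 12.5 to 19.3 CPM in controls and 2.98 and 2.50 CPM in batch 2, gave -2.40 ± 0.92 (adjusted p = 0.457).

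Genes of fatty acid use gave no calls either, and neither DESeq2 nor limma-voom called a gene of this list, of the sphingolipid list or of the synthesis lists. Of 35 tested genes of uptake, oxidation and PPAR response, 4 higher and 0 lower had an unadjusted p under 0.05. In all, 19 had fold changes above 0, with a median of 0.17 (-0.12 to 0.21 over the settings). Plin2, the coat protein of lipid droplets, was at 192, 266 and 198 CPM in controls and 281 and 292 CPM in batch 2 (0.38 ± 0.18, adjusted p = 0.629). Cpt1a, the gate of mitochondrial fatty acid import, had -0.29 ± 0.60. Cd36, Fabp1, Pdk4, Angptl4 and Ppara were too low to be tested. Of 22 genes of fatty acid synthesis, edgeR called 0, with 2 lower at an unadjusted p under 0.05, and the median was -0.13 (-0.29 to -0.06 over the settings). Scd2 and Scd1, the desaturases of palmitic and stearic acid, had log2 fold changes of -0.44 ± 0.16 and -0.58 ± 0.28 (adjusted p = 0.372 and 0.679), each with both batch 2 libraries below all controls. Of 24 genes of cholesterol synthesis edgeR called 0, with 1 lower at an unadjusted p under 0.05 and a median of -0.07 (-0.20 to 0.05 over the settings).

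Stress genes gave 1 call, a fall. Of 38 genes of the integrated stress response, Nupr1 fell, none rose, 27 were below 0, and the median was -0.32 (-0.40 to -0.13 over the settings). Ddit3, the factor CHOP of that response, was at 38.7, 30.9 and 33.7 CPM in controls and 21.4 and 10.4 CPM in batch 2 (-1.09 ± 0.49, adjusted p = 0.618), and Atf4 had -0.18 ± 0.26. Of 30 genes of endoplasmic reticulum folding, 0 were called by edgeR, DESeq2 or limma-voom, 1 higher and 3 lower had an unadjusted p under 0.05, and the median was -0.08 (-0.17 to -0.01 over the settings). Hspa5, its main chaperone, was at 739, 579 and 616 CPM and then 412 and 504 CPM (-0.49 ± 0.15, adjusted p = 0.192). Of 26 heat shock genes, 0 were called by any of the 3 tools. In edgeR, 5 higher and 1 lower had an unadjusted p under 0.05, against 3.81% and 3.29% of all genes. Their median was 0.23, with 10 genes above all controls (38.5% against 10.9%). Hspa8, the constitutive chaperone of the cytosol, was at 2387, 2332 and 2379 CPM in controls and 2780 and 3157 CPM in batch 2 (0.33 ± 0.12, adjusted p = 0.399).

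Most members of the hypoxia and glycolysis list and of the G2/M list had fold changes below 0. Of 34 hypoxia and glycolysis genes, Ero1a fell and none rose, and DESeq2 called Pfkp too. Fold changes were below 0 for 29, and 11 lay below all controls, 32.4% against 9.02% of all genes. The median was -0.23 (-0.28 to -0.16 over the settings). The falls were uneven within the list. The hypoxia-response genes Car9, Vegfa and Ndrg1 had log2 fold changes of -1.44, -1.10 and -0.69 without passing, while Ankrd37 and Higd1a had -0.14 and -0.08. Among glycolytic enzymes, Hk1 had -0.86 and Gapdh -0.20, while Aldoa, Pgk1, Eno1 and Ldha had 0.00, -0.01, 0.02 and -0.04. Both kinds of gene were thus uneven, and 5 genes of the list lay above 0. Pfkp, a phosphofructokinase, was at 384, 325 and 352 CPM in controls and 222 and 235 CPM in batch 2 (-0.63 ± 0.17, adjusted p = 0.0972). Of 51 G2/M genes tested, 0 were called by edgeR, DESeq2 or limma-voom and 10 lower had an unadjusted p under 0.05 in edgeR, against 3.29% of all genes. Of the 51, 47 had fold changes below 0 and 15 lay below all controls (29.4%). Their median was -0.36 (-0.40 to -0.31 over the settings). Summed, they gave 6118, 6298 and 6249 CPM in controls and 5113 and 5040 CPM in batch 2, with no overlap. Prc1, which bundles the spindle midzone, was at 447, 299 and 368 CPM in controls and 225 and 243 CPM in batch 2 (-0.66 ± 0.17, adjusted p = 0.0659). Top2a, the topoisomerase of dividing cells, was at 451, 294 and 333 CPM and then 221 and 240 CPM (-0.63 ± 0.18, adjusted p = 0.0972). For 39 S phase genes the median was 0.00, and 20 were below 0.

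**Figure D4:**
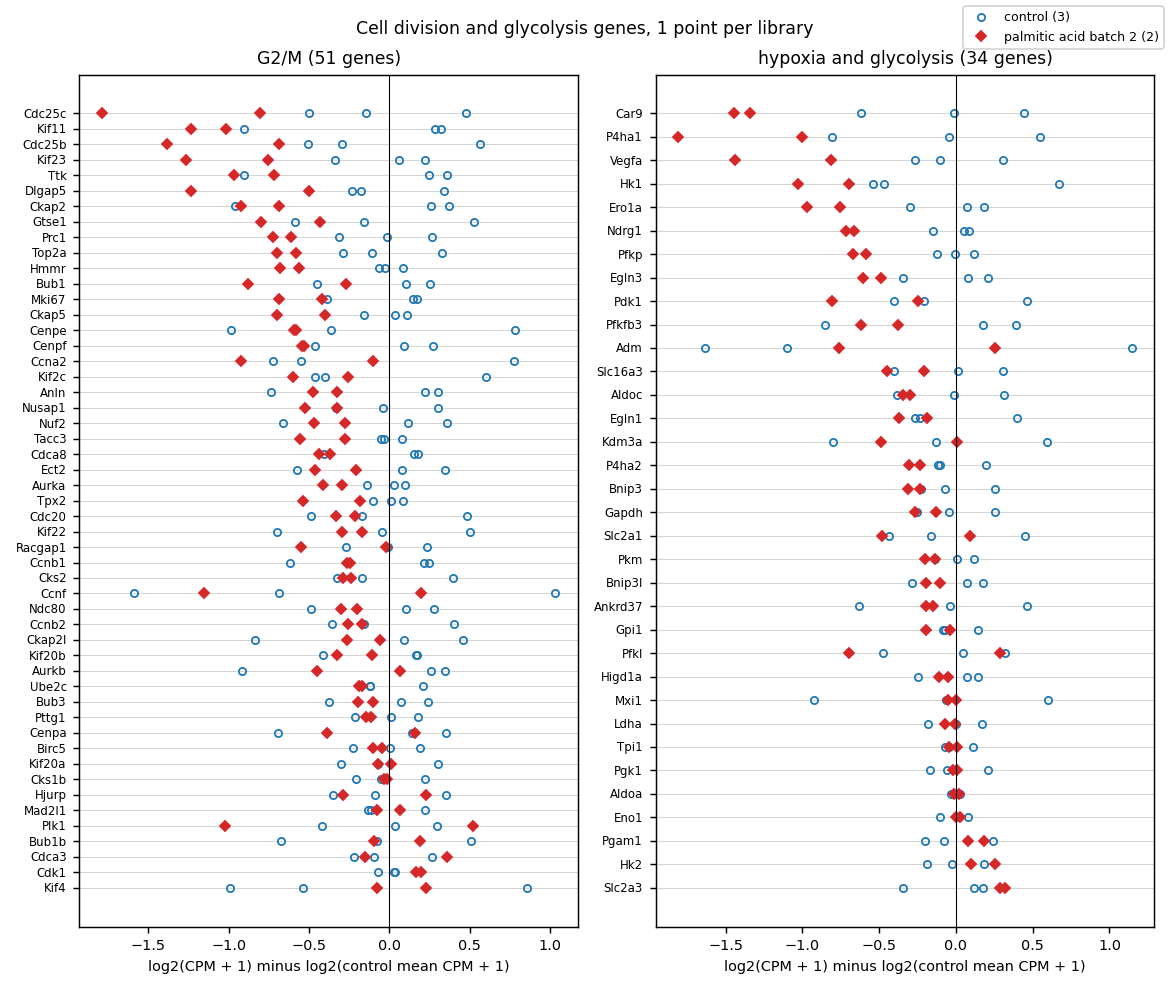
Level of each tested G2/M gene and each tested hypoxia and glycolysis gene in the 3 control and 2 batch 2 libraries, as log2(CPM + 1) minus log2 of the control mean CPM + 1 (horizontal). Most batch 2 points lie left of 0, while 15 of 51 and 11 of 34 genes have both batch 2 points left of all controls.

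Most genes of oxidative phosphorylation, of ribosome biogenesis and of the lysosome had fold changes above 0, and 1 passed. Of 59 nuclear genes of oxidative phosphorylation, 42 were above 0, with a median of 0.12 (0.06 to 0.20 over the settings). Above all controls lay 12 of them (20.3%, against 10.9% of all genes). None of the 3 tools called any of them, and 8 higher had an unadjusted p under 0.05 in edgeR, against 3.81% of all genes. Cox5b, a subunit of cytochrome oxidase, was at 81.2, 97.5 and 92.7 CPM in controls and 171 and 131 CPM in batch 2 (adjusted p = 0.171). Of 50 ribosome biogenesis genes, 36 were above 0 with a median of 0.12 (0.03 to 0.21 over the settings). Again 0 were called by the 3 tools, with 2 higher at an unadjusted p under 0.05 in edgeR, against 3.81% of all genes. Summed, the ribosome biogenesis genes overlapped between the groups, at 5334 to 6569 CPM in controls and 6528 and 6565 CPM in batch 2. Of 40 lysosomal genes, Ctsh rose, none fell, 27 were above 0, and the median was 0.16 (0.10 to 0.20 over the settings). Lamp2, a lysosomal membrane protein, was at 470, 509 and 444 CPM in controls and 709 and 651 CPM in batch 2 (0.52 ± 0.14, adjusted p = 0.0927), and DESeq2 called it along with Ctsh, while limma-voom called no lysosomal gene.

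**Figure D5:**
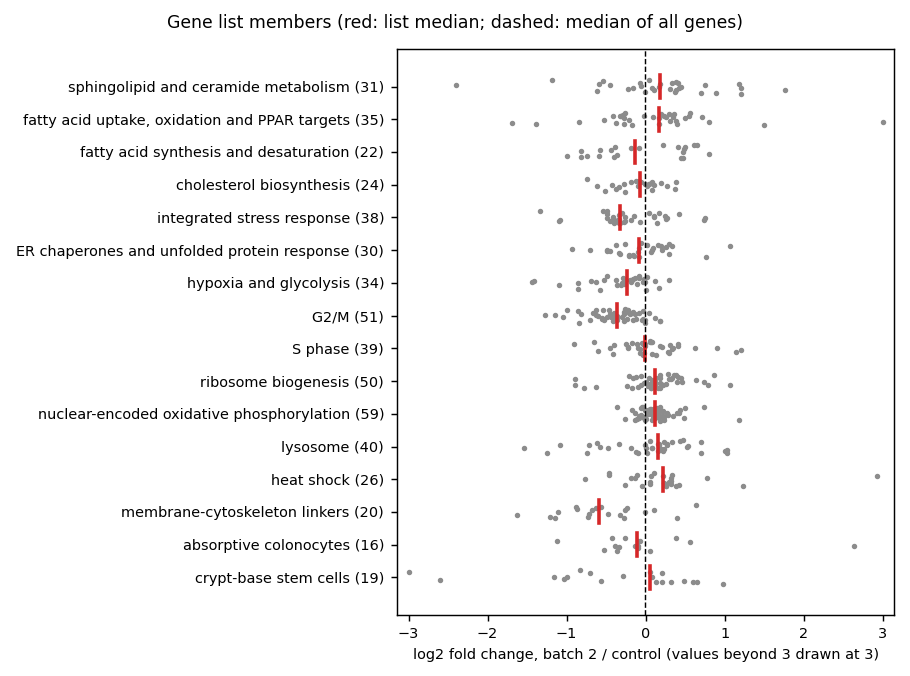
Log2 fold change of batch 2 over control (horizontal) of each tested member of 16 gene lists, with the number tested in brackets, the list median as a red line and the median of all genes dashed. The medians of the membrane linkers, G2/M and integrated stress response lists are -0.59, -0.36 and -0.32.

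Genes that mark the cell types of the gut epithelium gave few calls. Of 16 colonocyte genes, edgeR called 0, with 1 higher and 4 lower at an unadjusted p under 0.05, while DESeq2 and limma-voom each called Car2. Fold changes were below 0 for 12 of them, with a median of -0.11 (-0.22 to -0.06 over the settings). Car2, a carbonic anhydrase, was at 2684, 3087 and 3104 CPM in controls and 2229 and 2183 CPM in batch 2 (-0.42 ± 0.12, adjusted p = 0.124). Muc13, a membrane mucin, was at 133, 92.4 and 48.1 CPM and then 40.6 and 41.2 CPM (adjusted p = 0.111). Of 8 goblet genes tested, Tff1 rose and none fell, 2 were above 0 and 5 below, and the median was -0.73 (-1.18 to -0.26 over the settings). Ang4, an antimicrobial ribonuclease, was at 5.16, 2.74 and 2.70 CPM in controls and 0 in both batch 2 libraries (adjusted p = 0.124). Tff3, the trefoil peptide of goblet cells, was at 1.29, 1.17 and 7.65 CPM in controls and 0 and 0.416 CPM in batch 2 (adjusted p = 0.665). Muc2 and Zg16 were at 0 in all 5 libraries. Of 19 crypt-base stem cell genes edgeR called 0, with 5 lower at an unadjusted p under 0.05, against 3.29% of all genes. Their median was 0.05, which ran from -0.66 to 0.17 over the settings. Lgr5, the stem cell receptor, was at 1.29, 8.23 and 6.75 CPM in controls and 0 in both batch 2 libraries (adjusted p = 0.0762), and DESeq2 called it. Of 17 genes of regenerating and fetal-like epithelium, Gja1 fell and none rose, and the median was -0.14 (-0.24 to 0.07 over the settings). Fold changes were above 0 for 8 and below 0 for 9, with 1 higher and 2 lower at an unadjusted p under 0.05 in edgeR. The higher one, Sprr1a, had a log2 fold change of 1.10 (edgeR adjusted p = 0.307). Ly6a, the best-known surface marker of this list, was at 1785, 1709 and 1706 CPM in controls and 1335 and 1452 CPM in batch 2 (-0.31 ± 0.13, adjusted p = 0.511).

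Apc, a brake on Wnt signalling, and the tumour suppressor Trp53 did not pass, with log2 fold changes of 0.08 ± 0.60 and 0.84 ± 0.70. Myc, a Wnt target, was at 36.1, 38.0 and 46.8 CPM in controls and 40.1 and 35.4 CPM in batch 2. Of 17 interferon and antigen presentation genes, 0 were called by the 3 tools, 1 higher and 2 lower had an unadjusted p under 0.05 in edgeR, and the median was -0.31 (-0.43 to -0.00 over the settings). Of 16 NF-kB targets and chemokines edgeR called 0, with 2 higher and 2 lower at an unadjusted p under 0.05. Cxcl10, a chemokine of the interferon response, was at 3.87, 7.44 and 14.4 CPM in controls and 0 in both batch 2 libraries (adjusted p = 0.0703), and DESeq2 called it.

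Batch 1 shares its controls with batch 2, so each comparison's own values are given side by side and their likeness is no separate evidence. In batch 1, Dapl1 stood at a log2 fold change of 1.42, Ifitm3 1.09, Mgp 1.21, Sprr2a2 0.90, Wfdc18 3.19, Tff1 5.03, Fgfbp1 -1.40 and Rnf186 -1.42. Tested directly against batch 1, batch 2 differed in 10 of 9845 genes (0.102%), of which Gja1 and Rpl31-ps9 were also among its 32 calls. By list, the batch 1 and batch 2 medians were -0.04 and -0.36 for G2/M, -0.05 and -0.23 for hypoxia and glycolysis, -0.38 and -0.59 for the membrane linkers, and 0.26 and 0.18 for sphingolipid genes; no G2/M gene was called between the batches, and the difference of the medians was not tested. Rhoj had no count in any batch 1 library, as in controls, with a fitted difference of 7.93 ± 1.86 that depends on the prior count (adjusted p = 0.0512). The differences of the other 29 calls ran from -1.27 to 0.47 (log2), with errors of 0.13 to 0.73. Gja1 was at 7.69 to 17.7 CPM in batch 1, as in controls, and its direct difference was -5.76 ± 1.27 (adjusted p = 0.0202, and 0.843 without batch 2 library 1). It was also lost without each batch 1 library and batch 2 library 2.

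Rpl31-ps9, a processed copy of the ribosomal protein gene Rpl31 at chr1:129801387-129801764, was at 0, 10.6 and 6.75 CPM in controls, 0 in all 3 batch 1 libraries, and 58.8 and 112 CPM in batch 2. It passed against the controls (3.65 ± 0.54, adjusted p = 5.47e-05) and against batch 1 (adjusted p = 3.61e-10), but DESeq2 did not call it against the controls. Of its 31-base words, 94.0% occur in other genes, 86.5% in Rpl31. Rpl31 itself had a ratio of 1.11, and both together 1.16, so the sum hardly moved. In the 27 libraries of the carmofur experiment Rpl31-ps9 ran from 0 to 230 CPM, with 6 at 0. How reads were divided between Rpl31 and its copies was not tested.

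The 12 control libraries of the carmofur experiment are described beside these calls, on plain CPM and with no test. For some genes they differed from the palmitic acid controls as well, so the counts below are no separate evidence for the calls. The called genes were also picked for their batch 2 levels. The share of all tested genes that meets the same measures was not worked out, so the counts have no background to be read against. Sprr2a2 ran from 491 to 943 CPM in them against 1311 to 1381 CPM in the palmitic acid controls. Gm20390 ran from 863 to 1313 CPM against 396 to 498 CPM, while Mgp overlapped (24.5 to 134 against 77.3 to 96.0 CPM). For 11 of the 18 rises, none of the 12 reached the lower batch 2 library. These included Dapl1, Ifitm3, Mgp, Wfdc18 and both Sprr2a genes. Gm20390 was the exception on the other side: all 12 were at or above the lower batch 2 library. For 9 of the 14 falls, among them Fgfbp1, Rnf186, Msn, Plac8, Enpp2 and Ero1a, none of the 12 was as low as the higher batch 2 library. For Ahnak, H1f5 and Gm45315, at least 6 of the 12 were that low.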

How the data were processed

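RNA-seq of the organoid libraries is held in 1 table of estimated counts per gene, deposited by the authors as whole numbers. The tool was Salmon 1.3.0 and the build mm10, per the submitters' processing notes. The sources used here give neither the annotation nor how transcripts were summed to genes. The table held 54354 genes, of which 1243 had no name (0.0216% of the counts). Where a symbol stood for several genes (76 symbols), the gene with most counts kept it. Positions, and the 31-base words shared between transcripts, came from GENCODE M21.

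The 8 palmitic acid libraries were fitted together with edgeR 4.0.16 (R 4.3.3): TMM scaling, its default expression filter, robust quasi-likelihood F test, and Benjamini-Hochberg adjustment over the 9845 genes tested. Batch 1 entered to share the estimate of spread. The fit also drew each gene's spread towards that of other genes, with a median of 77.0 prior degrees of freedom. A gene can therefore pass although its own libraries vary widely. The standard error is the log2 fold change divided by the square root of F, and CPM in the text are TMM-scaled. The fit was tested on simulated data. The alternatives were RLE and library-size scaling, DESeq2 1.42.0, limma 3.58.1 (voom with quality weights), 2 other expression filters, a replicate block, a fit of 5 libraries, and each library left out.

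Named were all genes past the threshold with an official symbol that are not pseudogenes, the 10 lowest p in each direction at a mean of at least 20 CPM with no overlap of the groups, up to 4 lowest p of each list, and a fixed set of genes. Some of the genes so named are not reported here. The genes and the 41 lists were chosen with earlier results of these data known.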

Additional observations from a re-analysis of the deposited data

Results flagged for a closer look

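These 10 genes differed between batch 2 and batch 1 in the direct test (edgeR, adjusted p under 0.05), as log2 differences of batch 2 minus batch 1. Both groups were treated with palmitic acid, and batch was the only labelled difference.

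Rpl31-ps9 (10.7) and Gja1 (-5.76) are described above. Car1, a carbonic anhydrase of colonocytes, stood at 462 and 518 CPM in batch 2 and 251 to 266 CPM in batch 1 (0.921 ± 0.15, adjusted p = 1.65e-04), against 495 to 543 CPM in controls, and it passed under all 15 alternatives run. Mt4, a metallothionein, was lower in batch 2, at 733 and 932 CPM against 1258 to 1732 CPM (-0.803), and lost its call without batch 1 replicate 3 or batch 2 replicate 2, with adjusted p up to 0.501. Cma1, a chymase known from mast cells, stood at 1287 and 1307 CPM against 389 to 650 CPM (1.31). It lost its call without control replicates 1 or 3 or batch 1 replicate 3, with adjusted p up to 0.406.

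Ceacam2 (8.28), Lce6a (8.37) and Gm11571 (6.79) reached 17.9, 17.9 and 23.3 CPM in batch 2 and were at or near 0 in batch 1, and Ang4 (-7.92) was at 0 in batch 2 and at 11.3 to 14.4 CPM in batch 1. Fitted changes against groups at 0 depend on the prior count. Rps23-ps1, a copy of a ribosomal protein gene all of whose words occur in other genes, was at 447 and 459 CPM against 624 to 1005 CPM (-0.791). These 5 genes each lost their call without 3 to 5 of the libraries in turn, batch 1 replicates 1 and 3 and batch 2 replicate 1 in each case, with adjusted p up to 0.855.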

How the results depend on the processing

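No call changed direction under any of the 16 alternatives. For batch 2 against control, DESeq2 called 55 genes (28 of the 32 among them) and the fit of only the 5 libraries 16 (15 of the 32). Leaving out each library in turn gave 23 to 48 calls, and 24 of the 32 lost their call without at least 1 library. For batch 2 against batch 1, 10 genes were called, 19 with no expression filter, and 2 to 14 without each library in turn, the 2 without batch 1 replicate 3, with 5 and 6 without batch 1 replicates 1 and 2. The calls that limma-voom, the replicate block, a mean count of 10, DESeq2 and no filter lost numbered 12, 7, 5, 4 and 1. Of the other settings, RLE gave 32, library-size scaling 35, limma-voom 26, no filter 41 and a mean count of 10 28 calls against control. With the replicate number as a block, the replicate block fit called 28 genes against control (25 of the 32) and 8 between the batches. Same-numbered libraries did not deviate together (correlations of -0.0197 to 0.0217), so the numbers were not taken as pairs. Where a batch 2 library was left out, the lone library was assumed to vary like the other groups. The cause of these differences was not tested. Depth limits genes below the floor of a count of 0, most of all through control 1, and 2 libraries limit the precision of every batch 2 level.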
